A study of Oryzias latipes with 48 samples.

Results

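Heat shock proteins are chaperones that help other proteins fold, refold or be degraded, and the DnaJ proteins (HSP40) are the partners that deliver clients to HSP70 and start its ATP cycle. Heat shock factor 1 (hsf1) is the transcription factor that switches on the inducible members when proteins unfold, while constitutive relatives such as HSC70 and HSP90-beta keep cells supplied at all times. Fish take the temperature of their water, and heat shock genes are classic responders to warming in them.

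Genes were taken here when their product name in the deposited table contained "heat shock" or "DnaJ" and their mean over all libraries was at least 1 FPKM, a unit that scales fragments to the length of the transcript and the size of the library. Of 105 rows with such a name, 27 lay below that mean and hspa5, the HSP70 of the endoplasmic reticulum, was left out, which gave 77 genes of 26167 in the table. Although the group is named for the cytosol, the name rule also brought in 10 genes of mitochondrial chaperones and 14 of the endoplasmic reticulum, which left 53 others. Just inside the limit were LOC101169455 with a mean of 1.13 FPKM, LOC101169944 with 1.33 and dnajc28 with 1.34. Just outside were hsf2bp with 0.656 and hsf5 with 0.636. Only 4 of the 77 genes had a mean below 1 FPKM in at least 1 season, namely LOC101169944, LOC101169455, dnajc28 and dnajc30. Such genes passed because they were high elsewhere, so their differences are partly built into the choice.

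The samples were brain tissue of medaka (Oryzias latipes) holding the ventral telencephalon, hypothalamus and pituitary. Fish living outdoors were sampled around both equinoxes and both solstices, once in each of the 4 seasons, at clock hours 2, 6, 10, 14, 18 and 22. Each of the 24 groups of season and hour had 2 libraries, so each season had 12 and the series 48. All groups share the tissue and the outdoor keeping, and no genotype, strain or age, water temperature, number of fish or sex is given in the sources used here. The stated question was how each gene's level runs over the day as the seasons change. Collection covered more than 1 year, and no source used here gives a season's year or batch, so a season cannot be separated from its batch. The sources used here do not say that each library is a separate fish, and p-values then measure the spread between libraries, which may be technical.

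FPKM sums lay between 314605 and 359311 per library, and replicate libraries of a group correlated at 0.977 to 0.988 across genes. The depth behind each value is unknown, since FPKM alone were used. Neuronal, hypothalamic, telencephalic and pituitary markers were present, except that the row named prl (prolactin) was near 0 with a mean of 0.134 FPKM. Summed markers of red blood cells ran from 217 to 530 FPKM in spring, 939 to 2420 in summer, 924 to 1780 in autumn and 375 to 1230 in winter. Summed neuronal markers ran from 1330 to 1680 in spring and 1370 to 1590 in winter. They ran from 1660 to 2060 across summer libraries and from 1670 to 1880 across autumn ones, and myelin markers from 940 to 1520 in spring and winter together against 1380 to 2730 in summer and autumn. Skeletal muscle markers summed to at most 14.0 FPKM, photoreceptor markers to at most 27.8, and fibrinogen chains of the liver were near 0. The other genes of the liver list, LOC100144362 and LOC101169721, averaged 2830 and 1380 FPKM, and that list summed to 2950 to 5210 with season medians of 4050 to 4410. Medians of summed markers in spring, summer, autumn and winter were 4390, 2680, 3140 and 3260 FPKM for the pituitary, 373, 533, 532 and 494 for the hypothalamus, 225, 299, 256 and 241 for the ventral telencephalon, and 756, 985, 1070 and 716 for radial glia. Single genes weighed heavily in the first of these sums. LOC101171460 of the pituitary list averaged 2270 FPKM (895.89 to 4883.52 across libraries). LOC101160739 of the hypothalamus list averaged 256 (96.92 to 420.27). The part of the marker shifts in the season differences below was not tested. In bulk tissue fewer cells of a type and less RNA per cell cannot be told apart. In spring 3 libraries (2 h replicate 1, 18 h replicate 1 and 22 h replicate 2) stood apart on the second principal component, and results were also computed without them.

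Together the 77 genes summed to 2359 ± 115 FPKM in spring, 2806 ± 137 in summer, 2909 ± 140 in autumn and 2737 ± 98.0 in winter (mean ± SD, n = 12 libraries each). The most abundant were hsp90ab1, with a mean of 689 FPKM over all libraries, and hsc70, with 516. By season means, 37 of the 77 were lowest in spring, 21 in summer, 12 in winter and 7 in autumn. Of the 77, 30 were highest in winter, 29 in autumn, 13 in summer and 5 in spring. The share of all genes lowest or highest in each season was not computed, so these counts mark nothing particular to the 77. A gene was called where limma's adjusted p over all genes tested was below 0.05. Season was called for 74 of the 77 genes, against 90.9% of all 16622 genes tested, so a call for season by itself marks nothing about them. Differences are given on the log2(FPKM + 1) scale as the mean over the 6 hours, and folds are taken from them, which understates the change of genes near 1 FPKM.

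**Figure D1:**
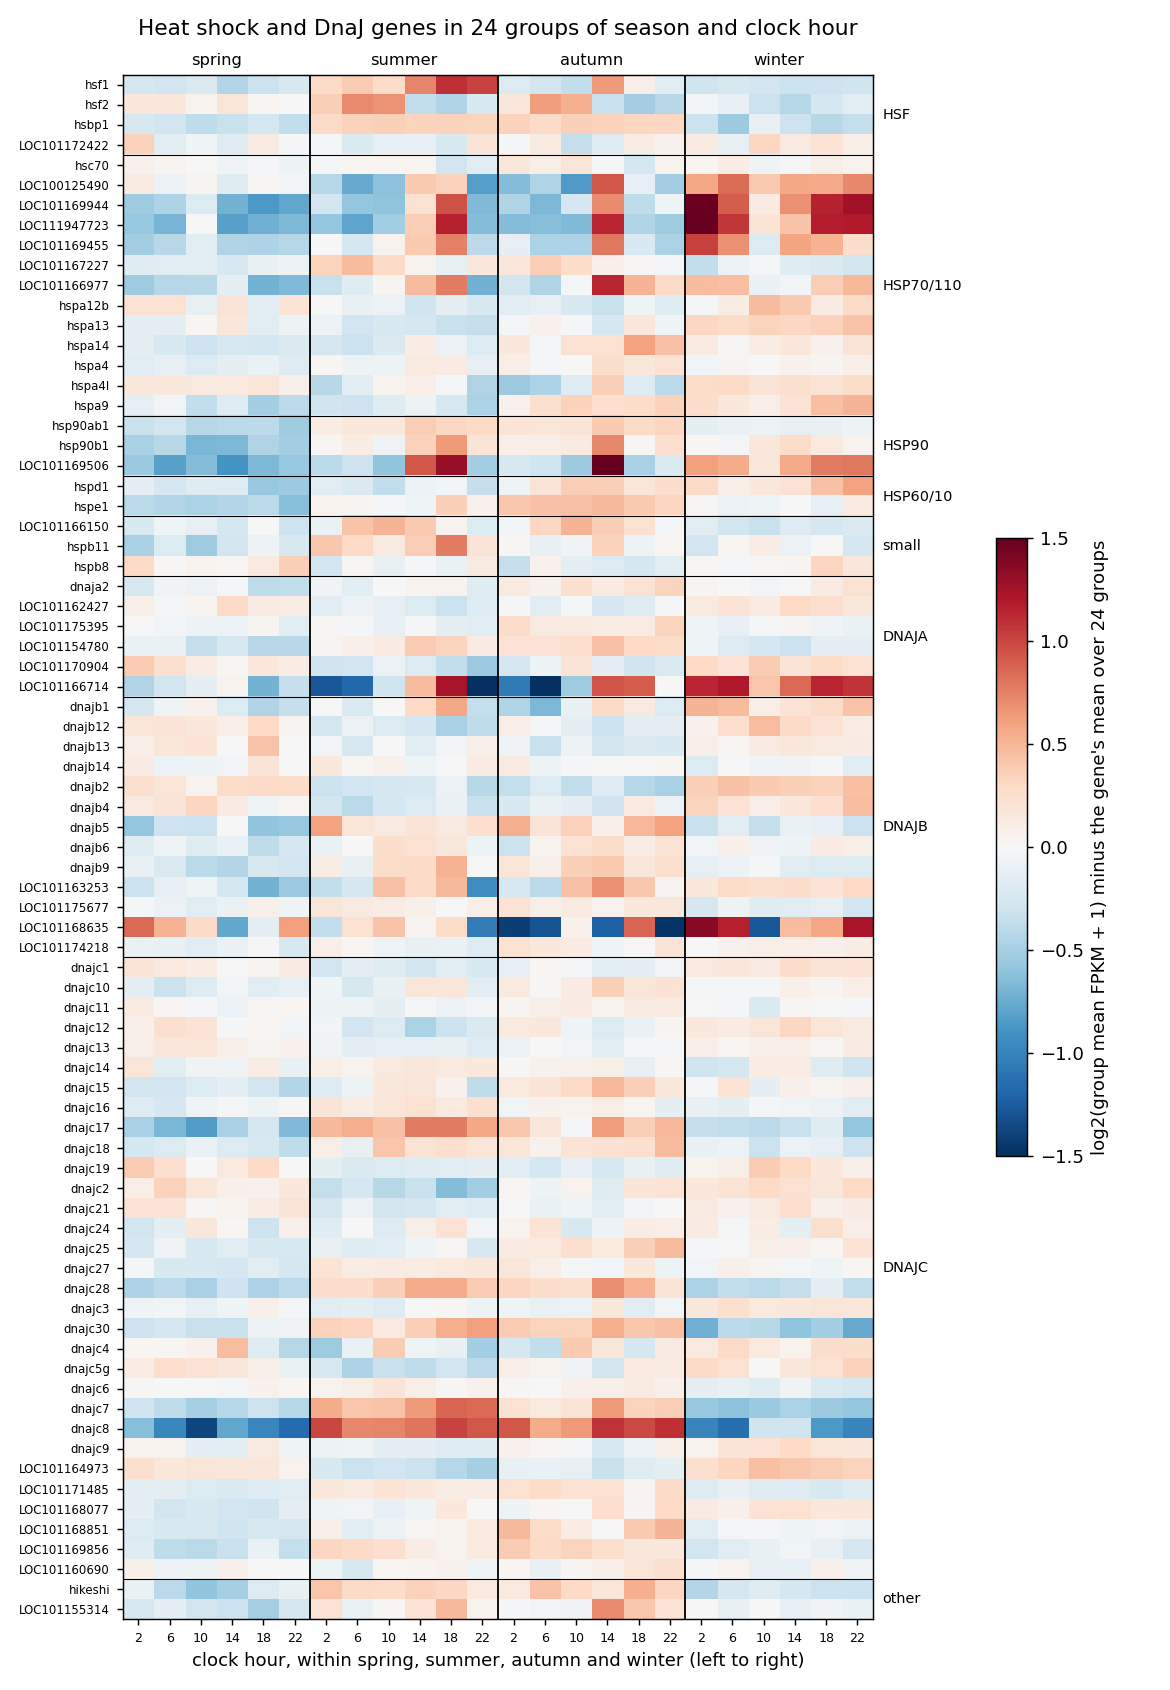
Mean level of each of the 77 genes in the 24 groups, as log2(FPKM + 1) minus the gene's own mean over the groups (colour, cut off at 1.5 in either direction); columns run through the clock hours within each season and rows are ordered by family. High values stand at 14 and 18 h in summer, at 14 h in autumn and through winter for several HSP70, HSP90 and DnaJ genes, while dnajc8 and dnajc7 are high at every hour of summer and autumn.

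The factor hsf1 was flat in spring and winter and high in summer. Its spring libraries lay between 29.7 and 35.5 FPKM, with a median of 33.8, and its winter libraries between 32.1 and 36.5, with a median of 33.0. In summer it read 45.36 and 55.02 at 2 h, 54.58 and 52.85 at 6 h, 46.13 and 53.91 at 10 h, 65.50 and 72.51 at 14 h, 94.45 and 83.25 at 18 h, and 89.77 and 78.88 at 22 h. Every summer library was above every spring and winter library, and the afternoon and evening libraries were the highest. Autumn gave 33.20 and 38.00 at 2 h, 35.77 and 31.88 at 6 h, 34.88 and 28.38 at 10 h, 59.66 and 69.23 at 14 h, 42.09 and 45.71 at 18 h, and 35.26 and 38.23 at 22 h. There only the libraries of 14 and 18 h stood above the winter range by more than a few FPKM. The summer mean was 66.0 ± 17.2 FPKM against 33.4 ± 1.26 in winter (SD, n = 12 each), a log2 difference of 0.92 ± 0.04 (SE; adjusted p = 8.4e-18 by limma). The autumn mean of 41.0 ± 12.01 exceeded the spring mean of 33.4 ± 1.88 by 1.19-fold (adjusted p = 4.3e-06). Without the hours 14 and 18, a comparison added after the data were seen, that difference was 0.0051 with spring the higher (adjusted p = 0.94), so the autumn excess rests on those hours.

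The other factor, hsf2, ran in the opposite phase. In summer it read 17.19 and 15.43 FPKM at 6 h and 17.97 and 13.70 at 10 h, against 6.36 and 7.17 at 18 h. Autumn gave 14.81 and 16 at 6 h, 14.68 and 14.05 at 10 h, and 6.39 and 6.43 at 18 h. All libraries of 2, 6 and 10 h lay above all libraries of 14, 18 and 22 h in both seasons. The fitted 24 h curve peaked at 6.27 h in summer with an amplitude of 0.65 ± 0.05 on the log2 scale from mean to peak (SE; adjusted p = 4.8e-12), and at 6.78 h in autumn with 0.64 ± 0.05 (adjusted p = 1.1e-11). That is a 2.48-fold rise from trough to peak in summer and a 2.42-fold rise in autumn. Spring libraries lay between 8.53 and 11.7 FPKM and winter libraries between 6.80 and 9.39. Neither of those seasons gave hsf2 a called curve. By contrast, hsf1 peaked at 18.7 h in summer (amplitude 0.45 ± 0.07, adjusted p = 3.6e-05) and 15.9 h in autumn (0.35 ± 0.07, adjusted p = 0.0012).

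The heat shock factor binding protein hsbp1, which binds the trimer domain of HSF1, differed mainly by season. Its libraries ranged from 47.8 to 55.4 FPKM in summer and 47.3 to 53.0 in autumn, against 28.8 to 36.2 in spring and 25.7 to 37.2 in winter. Those pairs of ranges do not overlap. Hours differed as levels in winter only (adjusted p = 0.034), from a mean of 27.3 at 6 h to 37.1 at 10 h, and no season gave a called curve. It was 1.60-fold higher in summer than in winter (adjusted p = 1.1e-16) and 1.56-fold lower in spring than in autumn (adjusted p = 6.2e-16). A second gene of that name, LOC101172422, averaged 2.73 FPKM and was not called in either comparison.

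**Figure D2:**
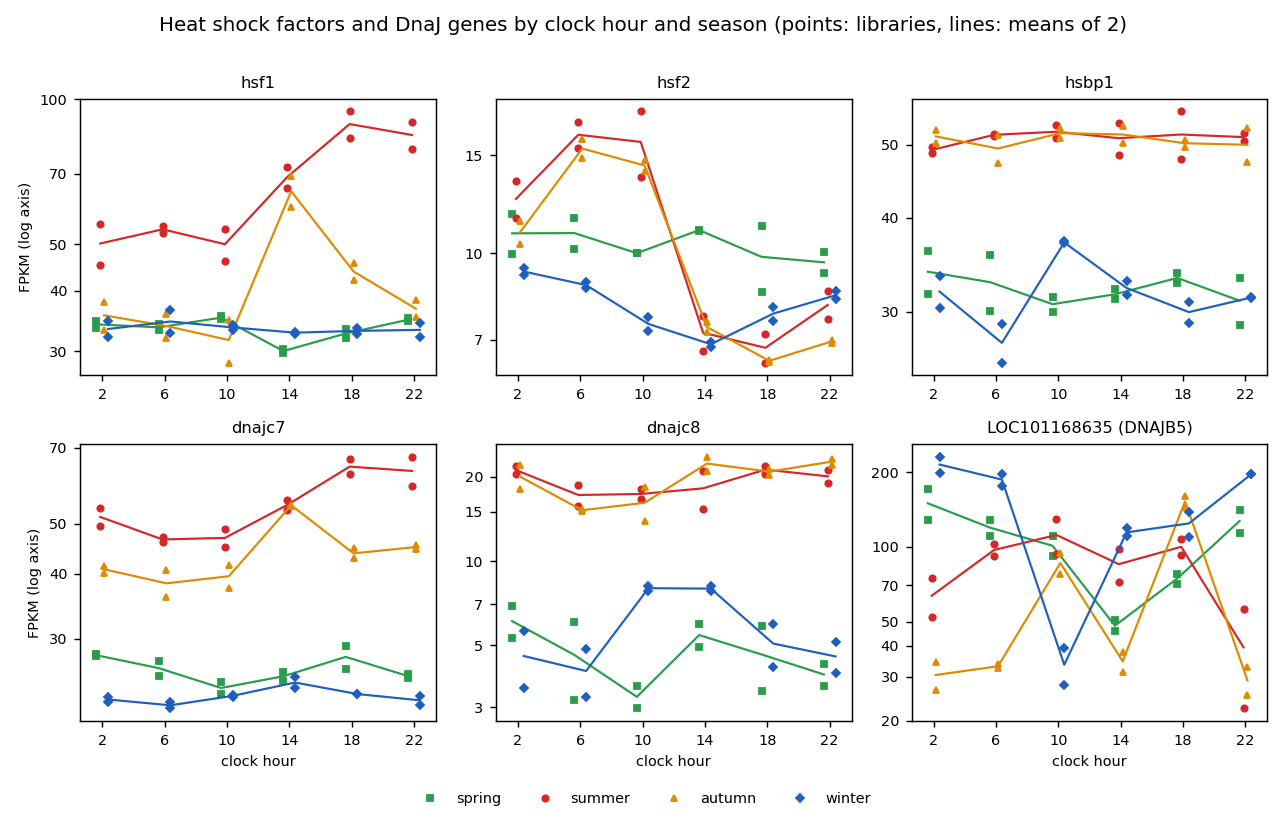
FPKM (log axis) against clock hour for hsf1, hsf2, hsbp1, dnajc7, dnajc8 and LOC101168635, with each library as a point and lines through the means of 2. In summer and autumn hsf2 is high from 2 to 10 h when hsf1 is low, and dnajc8 separates summer and autumn (13.9 to 23.6 FPKM) from spring and winter (2.97 to 8.15 FPKM) at all hours.

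Among HSP70 genes, an inducible one, LOC111947723, differed most between winter and both summer and spring on the log2(FPKM + 1) scale. By plain means the lower gene LOC101169944, described below, changed relatively more between spring and winter. The HSP70-1 gene LOC111947723 lay between 0.81 and 2.62 FPKM in spring. Summer libraries read 1.13 and 1.68 at 2 h, 0.75 and 1.39 at 6 h, 2.34 and 0.68 at 10 h, 4.26 and 3.05 at 14 h, 7.17 and 6.88 at 18 h, and 1.07 and 1.51 at 22 h. Autumn libraries read 1.41 and 1.16 at 2 h, 1.60 and 1.01 at 6 h, 1.43 and 1.12 at 10 h, 6.55 and 7.33 at 14 h, 1.31 and 1.94 at 18 h, and 1.69 and 1.29 at 22 h. The rise thus took in 14 and 18 h in summer but 14 h alone in autumn. Winter libraries read 13.96 and 17.08 at 2 h, 5.99 and 6.95 at 6 h, 2.38 and 3.93 at 10 h, 4.18 and 3.48 at 14 h, 7.22 and 7.03 at 18 h, and 7.19 and 7.20 at 22 h. Winter was thus highest at 2 h and lowest at 10 h.

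Winter exceeded spring 3.09-fold for LOC111947723 (7.22 ± 4.28 against 1.45 ± 0.618 FPKM, adjusted p = 6.6e-13) and exceeded summer 2.34-fold (adjusted p = 4.9e-12). Spring was 1.22-fold lower than autumn (adjusted p = 0.011), a call that did not hold without the 3 spring libraries (adjusted p = 0.065) and whose direction turned without hours 14 and 18 (difference 0.13, adjusted p = 0.41). Its fitted peak was at 16.7 h in summer (amplitude 0.86 ± 0.18, adjusted p = 0.0028), 14.6 h in autumn (0.62 ± 0.18, adjusted p = 0.042) and 0.41 h in winter (0.81 ± 0.18, adjusted p = 0.035). The winter call did not hold with a pseudocount of 0.1 (adjusted p = 0.081) or with no filter on low values (adjusted p = 0.054). It was also lost in 6 of the fits leaving out a library, among them that without winter 10 h replicate 1 (adjusted p = 0.14). With the hours as separate levels, which assumes no curve shape, the adjusted p in winter was 4.5e-05.

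A pair of further HSP70-1 genes had lower levels. LOC101169944 lay between 0 and 0.9 FPKM in spring and between 1.19 and 5.51 in winter, with 1.17 to 3.92 at 14 and 18 h of summer against 0 to 0.77 at its other hours. LOC101169455 read 1.93 and 2.97 at 14 h of autumn against 0.21 to 1.23 at its other hours. LOC101169944 lies next to LOC111947723 in the reference gene order. LOC101169455 lies 8 rows on in that order. Such copies may share reads, so their separate levels are uncertain. Both genes had season means below 1 FPKM, so their differences are partly built into the choice.

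LOC100125490, named as a heat shock cognate, also rose in the afternoon. It read 35.65 and 29.51 FPKM at 14 h and 32.48 and 30.59 at 18 h of summer, against 12.9 to 18.3 at the other hours. In autumn 14 h gave 41.88 and 53.29, against 11.1 to 27.0 at the others. Winter libraries lay between 31.0 and 47.0, all above the spring range of 17.6 to 29.7. Winter exceeded summer 1.91-fold (adjusted p = 1.9e-12). By contrast hsc70, the abundant constitutive form, averaged 512 ± 33.5 FPKM in spring, 493 ± 47.0 in summer, 530 ± 55.3 in autumn and 528 ± 30.7 in winter. Its summer level was 1.07-fold below winter (adjusted p = 0.01), and spring and autumn were not called apart (difference -0.04, adjusted p = 0.25). In summer and autumn hsc70 was lowest at 18 h (428.57 and 413.04, then 442.64 and 414.31) and its fitted peaks fell at 7.90 and 5.63 h.

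The HSP110-type partners, which recharge HSP70 by exchanging its nucleotide, had daily curves as well. LOC101166977 (HSPA4-like) read 17.79 and 16.89 FPKM at 14 h of autumn against 4.73 to 11.2 at its other hours, and 12.21 and 14.07 at 18 h of summer against 3.85 and 4.21 at 22 h. The gene hspa4l peaked at 12.7 h in summer (amplitude 0.30 ± 0.04, adjusted p = 1.4e-06) and 14.2 h in autumn (0.38 ± 0.04, adjusted p = 6.8e-09). Its summer libraries at 14 and 18 h (32.0 to 35.9 FPKM) overlapped those of the other summer hours (23.5 to 35.4). Spring and winter held hspa4l between 34.3 and 41.9 FPKM at every hour, while autumn ran from 22.3 to 43.3. Its 14 h libraries in autumn were thus near the level that spring and winter kept all day. LOC101167227 (HSPA12A), a distant relative, peaked in the morning instead, at 5.32 h in summer (0.27 ± 0.03, adjusted p = 8.7e-07) and 7.43 h in autumn (0.19 ± 0.03, adjusted p = 0.00056).

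Of the 13 HSP70 and HSP110 genes, 11 were lower in summer than in winter (32.9% of all genes tested were) and 1 higher (42%), with a median difference of -0.38 against 0.05 over all genes tested. Between winter and spring 10 were higher in winter (28.1% of all genes) and none lower (21.3%), with a median of 0.39 against 0.02. The 13 include LOC101169944 and LOC101169455, which passed the limit of 1 FPKM through winter. Their place in these counts and medians is thus partly built into the choice. The 1 gene higher in summer was LOC101167227 (14.5 ± 2.22 against 10.7 ± 1.11 FPKM). Because the inducible genes swing widely over the day in summer, folds of mean log values mix their level with their daily range.

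The inducible HSP90 gene, LOC101169506 (HSP90-alpha), showed the sharpest single hour. Autumn libraries read 39.05 and 34.70 FPKM at 2 h, 32.97 and 37.87 at 6 h, 25.27 and 34.24 at 10 h, 175.96 and 190.63 at 14 h, 36.23 and 25.81 at 18 h, and 43.00 and 32.10 at 22 h. The 14 h mean was 5.37 times the mean of the other autumn hours. Summer libraries read 29.50 and 36.72 at 2 h, 38.06 and 32.26 at 6 h, 29.49 and 27.94 at 10 h, 82.99 and 86.04 at 14 h, 100.56 and 118.49 at 18 h, and 27.91 and 32.82 at 22 h. At 2, 6, 10 and 22 h, group means were 28.72 to 35.16 FPKM in summer and 29.76 to 37.55 in autumn. Spring means at those hours were 24.51 to 29.53, below summer and autumn at each of them. Spring libraries spanned 21.4 to 35.5, with a median of 26.6. Winter libraries spanned 44.5 to 78.6, with a median of 68.0, all above spring and below the summer and autumn peaks.

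Winter exceeded spring 2.42-fold for LOC101169506 (66.6 ± 9.95 against 26.8 ± 3.65 FPKM, adjusted p = 4.1e-14) and exceeded summer 1.42-fold (53.6 ± 33.3 FPKM, adjusted p = 9.5e-08). The curve was called in summer (peak 16.3 h, amplitude 0.85 ± 0.21, adjusted p = 0.013) but not in autumn, where a single high hour makes a poor cosine. The test of hours as levels gave an adjusted p of 1.5e-10 in summer and 2.1e-12 in autumn. A neighbouring copy, LOC101169258, averaged 0.403 FPKM and was not among the genes described here. The constitutive HSP90-beta gene hsp90ab1 was the most abundant of the 77. It held 724 to 934 FPKM in summer and 744 to 905 in autumn against 603 to 653 in winter and 443 to 565 in spring, with no overlap of summer and autumn with the others. It was 1.27-fold higher in summer than in winter (adjusted p = 1.5e-11) and 1.58-fold lower in spring than in autumn (adjusted p = 1.4e-17). The endoplasmic hsp90b1 was highest at the same hours, with 87.98 and 96.32 at 18 h of summer and 98.63 and 97.46 at 14 h of autumn.

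**Figure D3:**
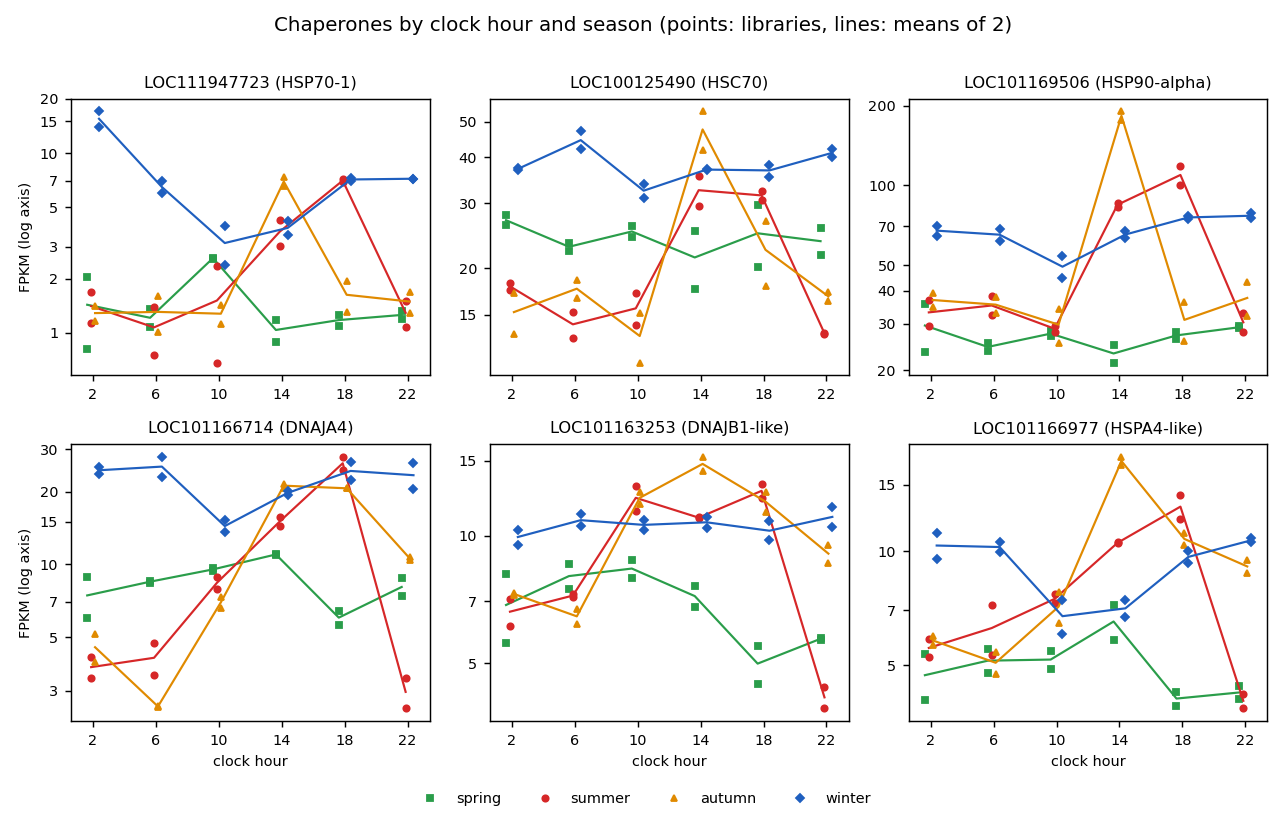
FPKM (log axis) against clock hour for 6 chaperone genes, with each library as a point and lines through the means of 2. Summer values are highest at 14 to 18 h and autumn values at 14 h for most of them, as for LOC101169506 with 175.96 and 190.63 FPKM at 14 h of autumn. Winter values are high through most of the day, and spring means are below them at every hour. For LOC100125490 and LOC101166714, spring means at 2 and 6 h are above those of summer and autumn.

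Among J proteins of class A, which carry the full zinc-finger architecture, LOC101166714 (DNAJA4) stood out. Its fitted amplitude on the log2(FPKM + 1) scale was the largest of the 77 genes in both summer and autumn. That scale shrinks low genes. By the ratio of highest to lowest hour mean, the low gene LOC101169944 changed more, 10.37 against 8.83 in summer and 8.34 against 8.19 in autumn. Summer libraries read 4.13 and 3.39 FPKM at 2 h, 3.5 and 4.72 at 6 h, 8.89 and 7.90 at 10 h, 15.78 and 14.36 at 14 h, 24.63 and 27.81 at 18 h, and 2.54 and 3.40 at 22 h. Autumn libraries read 3.95 and 5.14 at 2 h, 2.57 and 2.60 at 6 h, 7.35 and 6.59 at 10 h, 21.57 and 20.79 at 14 h, 20.62 and 20.69 at 18 h, and 10.77 and 10.46 at 22 h. From 18 to 22 h the level fell steeply in summer and more slowly in autumn. Spring libraries lay between 5.62 and 11.1, with the highest pair (11.05 and 10.95) at 14 h. Winter libraries lay between 13.6 and 27.9, lowest at 10 h (13.63 and 15.20). All winter libraries but 1 at 10 h and 1 at 6 h were thus within the range of the summer and autumn libraries at 14 and 18 h (14.4 to 27.8).

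The amplitude of LOC101166714 was 1.24 ± 0.14 in summer (peak 15.1 h, 5.62-fold from trough to peak, adjusted p = 5.1e-08) and 1.36 ± 0.14 in autumn (peak 16.8 h, 6.57-fold, adjusted p = 7.1e-09). Its curve differed between summer and winter (adjusted p = 1.1e-05) and between spring and autumn (adjusted p = 1.7e-05). Winter exceeded summer 2.64-fold (22.0 ± 4.42 against 10.1 ± 8.72 FPKM, adjusted p = 2.6e-18) and spring 2.43-fold (adjusted p = 1.2e-15). Spring and autumn were not called apart (8.43 ± 1.78 and 11.1 ± 7.70 FPKM, difference -0.08 ± 0.06, adjusted p = 0.23). Between summer and winter the DNAJA2 genes differed far less. Between spring and autumn they did differ. Hour means of dnaja2 ran from 25.01 to 32.22 FPKM in spring and from 34.51 to 41.62 in autumn. Those of LOC101175395 ran from 57.39 to 66.18 in spring and from 69.45 to 81.13 in autumn. The summer and winter values were close. LOC101175395 (DNAJA2-like) averaged 61.0 FPKM in summer and 62.1 in winter (adjusted p = 0.42), and dnaja2 31.8 and 34.4 (1.08-fold, adjusted p = 0.0096).

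The class B genes split by hour and season. The DNAJB1 pair, the HSP70 partners that loosen aggregates, had their highest hour mean at 18 h in summer and at 14 h in autumn. LOC101163253 rose in the morning, from a mean of 7.23 FPKM at 6 h to 12.3 at 10 h in summer and from 6.46 to 12.3 in autumn. It reached 15.33 and 14.18 FPKM at 14 h of autumn and 12.24 and 13.26 at 18 h of summer, and fell to 3.92 and 4.40 at 22 h of summer. Its trough-to-peak fold was 2.29 in summer (adjusted p = 2.5e-06) and 2.06 in autumn (adjusted p = 3.3e-05). The second gene, dnajb1, reached 11.72 and 11.93 at 18 h of summer and 9.84 and 9.09 at 14 h of autumn, with fitted peaks at 15.6 and 15.8 h. For dnajb1, winter lay between 7.61 and 12.1 and spring between 5.24 and 8.05. In winter LOC101163253 kept between 9.53 and 11.7 at every hour.

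LOC101168635 (DNAJB5) varied widely over the day, but not as a called 24 h curve. In winter it read 230.3 and 198.72 FPKM at 2 h and 196.75 and 176.49 at 6 h, dropped to 27.78 and 39.35 at 10 h, and returned to 196.18 and 196.13 at 22 h. In autumn it read 77.87 and 94.40 at 10 h and 144.83 and 160.0 at 18 h, while the other autumn hours gave 25.3 to 37.8. Spring was lowest at 14 h (45.77 and 50.61) and summer at 22 h (22.42 and 56.45). The lowest mean was thus at 10 h in winter, 14 h in spring and 22 h in summer, and at 22 h in autumn too (29.1). Hours differed as levels in every season, with adjusted p-values of 0.0012 in spring, 0.00028 in summer, 4.6e-08 in autumn and 4.5e-07 in winter. The winter curve had an adjusted p of 0.055, and was called with groups of season and hour weighted unequally (adjusted p = 0.019). Its season means ran from 61.0 ± 47.8 in autumn to 145 ± 65.5 in winter, and spring exceeded autumn 1.96-fold (adjusted p = 3.2e-09).

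The second DNAJB5 gene, dnajb5, behaved otherwise. Its libraries lay between 6.79 and 11.3 FPKM in autumn against 3.71 to 6.47 in spring (1.71-fold lower in spring, adjusted p = 2.4e-15). In summer it lay between 6.95 and 10.6, against 4.47 to 6.60 in winter, again with no overlap. The neuronal HSP70 partner dnajb2 went the opposite way, with 11.9 to 16.8 in summer and 10.5 to 14.7 in autumn against 20.2 to 25.1 in winter and 17.3 to 23.6 in spring. Winter exceeded summer 1.58-fold for dnajb2 (adjusted p = 1.4e-14). Of the 13 class B genes, summer exceeded winter for 4 (42% of all genes) and fell below it for 8 (32.9%), while 5 were higher in spring than in autumn (27.3% of all genes were) and 6 lower (45.1%).

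Class C proteins keep the J domain alone and serve many machines, and they held the largest season differences on the log2(FPKM + 1) scale. That scale shrinks low genes. By plain means the HSP70-1 gene LOC101169944 changed relatively more than dnajc8, from 0.367 FPKM in spring to 3.08 in winter. Its summer and autumn means were 1 and 0.889, so it passed the limit of 1 FPKM through winter. That change is thus partly built into the choice of genes. The gene dnajc8, whose human product is found with the spliceosome, averaged 4.66 ± 1.33 FPKM in spring, 5.70 ± 1.86 in winter, 19.2 ± 2.33 in summer and 19.6 ± 3.33 in autumn. Its lowest library of summer and autumn (13.9) was above its highest spring or winter library (8.15). The fold was 3.11 for summer over winter (adjusted p = 1e-15) and 3.68 for autumn over spring (adjusted p = 7.6e-17). A further gene linked to splicing in humans, dnajc17, lay between 3.64 and 5.25 in summer against 0.89 to 2.47 in winter, 1.97-fold higher (adjusted p = 6.4e-11).

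The HSP70 and HSP90 adaptor dnajc7 averaged 54.5 ± 7.78 FPKM in summer, 43.7 ± 5.68 in autumn, 26.1 ± 1.61 in spring and 23.2 ± 0.854 in winter. Summer was 2.27-fold above winter (adjusted p = 2.5e-24), the smallest adjusted p of the 77 in that comparison, and autumn 1.64-fold above spring (adjusted p = 4.1e-19). It also had a daily curve, with peaks at 19.5 h in summer (0.26 ± 0.04, adjusted p = 8e-06) and 16.6 h in autumn (0.17 ± 0.04, adjusted p = 0.0024). At 14 h of autumn it read 54.12 and 54.35, against 36.04 to 45.4 at the other hours. In summer it was highest at 18 and 22 h, with 66.60, 62.20, 67.25 and 59.10.

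The low genes dnajc28 and dnajc30 were also higher in summer and autumn. Both had a winter mean below 1 FPKM, so these differences are partly built into the choice. Means of dnajc28 were 1.97 ± 0.364 FPKM in summer and 1.93 ± 0.493 in autumn against 0.763 ± 0.147 in winter and 0.683 ± 0.118 in spring. Means of dnajc30, a mitochondrial member, were 2.59 ± 0.458 and 2.62 ± 0.227 against 0.856 ± 0.232 and 1.35 ± 0.269. In the opposite direction, dnajc2, the ribosome-bound J protein, lay between 7.13 and 11.2 in summer and 12.5 and 16.8 in winter (1.57-fold, adjusted p = 2.7e-14). LOC101164973 (DNAJC11-like, mitochondrial) lay between 9.71 and 13.3 in summer and 17.8 and 21.6 in winter (1.63-fold, adjusted p = 6.1e-18). The synaptic vesicle chaperone DNAJC5, cysteine string protein, has a pair of genes here. LOC101169856 averaged 94.0 FPKM in spring and 138 in autumn (1.47-fold lower in spring, adjusted p = 4.4e-16), and LOC101168851 averaged 23.0 and 34.2 (1.45-fold, adjusted p = 3.3e-13). Neuronal markers were also higher in autumn than in spring, by the sums given above. The gene dnajc5g, related by name, did not share that rise. Its hour means ran from 14.35 to 18.54 FPKM in spring and from 12.6 to 17.14 in autumn. Of 31 class C genes, summer exceeded winter for 13 (42% of all genes) and fell below it for 13 (32.9%), and spring exceeded autumn for 6 (27.3%) and fell below it for 16 (45.1%).

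The mitochondrial chaperonin pair was lower in spring than in autumn. The cochaperonin hspe1 (HSP10) lay between 16.9 and 23.3 FPKM in spring against 32.4 to 41.9 in autumn (1.84-fold lower in spring, adjusted p = 2.9e-16). Its partner hspd1 (HSP60), adjacent in the reference gene order, averaged 14.2 ± 2.34 in spring and 20.9 ± 2.45 in autumn (1.45-fold, adjusted p = 3.7e-07). The mitochondrial HSP70, hspa9, averaged 30.4 ± 4.79 in spring and 30.5 ± 4.27 in summer against 44.1 ± 3.54 in autumn and 45.0 ± 6.05 in winter. Summer hspa9 was below autumn 1.44-fold (adjusted p = 2.4e-07), the largest called decrease of that comparison. Of the 10 mitochondrial genes, spring fell below autumn for 6 (45.1% of all genes) and exceeded it for 3 (27.3%). None of hspe1, hspd1 and hspa9 had a called daily curve in any season.

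Small heat shock proteins, which hold unfolded proteins without ATP, were few. The HSP27 gene LOC101166150 peaked before noon, at 10.4 h in summer (0.39 ± 0.06, adjusted p = 2.7e-05) and 11.3 h in autumn (0.28 ± 0.06, adjusted p = 0.0027). It read 10.69 and 10.80 FPKM at 10 h of summer against 7.20 and 5.09 at 22 h. The gene hspb11 is placed here by its product name alone, which does not show that it acts as such a chaperone. It averaged 10.1 ± 2.03 in summer and 7.12 ± 1.17 in winter (1.36-fold, adjusted p = 0.00017), with 14.07 and 13.12 at 18 h of summer. Summer also exceeded autumn for hspb11 (1.26-fold, adjusted p = 0.0061), which was not called without hours 14 and 18 (adjusted p = 0.057). A cluster of 13 genes named heat shock protein 30-like had means of at most 0.115 FPKM and a highest single value of 1.07, so this family was near 0 at every hour.

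Hikeshi, the importer that carries HSP70 into the nucleus, averaged 4.11 ± 0.518 FPKM in summer and 4.20 ± 0.651 in autumn against 2.39 ± 0.326 in winter and 2.37 ± 0.485 in spring. The HSP90 ATPase activator LOC101155314 (AHA1) read 15.90 and 15.49 at 14 h of autumn against 8.13 to 13.3 at its other hours. Its fitted peak in autumn was at 16.4 h (0.35 ± 0.06, adjusted p = 0.00022).

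Across the 77 genes, daily curves were called for 29 in summer, against 13.6% of all genes tested, and for 24 in autumn, against 16.1%. In spring 2 were called, against 2.59%, and in winter 3, against 1.53%. The 2 spring genes were dnaja2 (peak 9.27 h, 0.19 ± 0.04, adjusted p = 0.017) and hikeshi (22.8 h, 0.27 ± 0.06, adjusted p = 0.032), and neither was called without the 3 spring libraries (adjusted p = 0.43 and 0.11). Besides LOC111947723, winter called dnajc14 (12.4 h, 0.24 ± 0.05, adjusted p = 0.015) and dnajb12 (11.3 h, 0.17 ± 0.04, adjusted p = 0.039). Neither was called without the winter 10 h replicate 1 library (adjusted p = 0.062 and 0.19). Over the fits leaving out each library in turn, the call was lost in 3 for dnajc14 and in 7 for dnajb12. Curves averaged over the seasons were called for 24 genes, against 13.5%. With the hours as levels, 32 genes were called in summer against 15.1%, 33 in autumn against 23.5%, 9 in spring against 6.28% and 9 in winter against 2.78%. By group means, 27 of the 77 were highest at 18 h in summer and 30 at 14 h in autumn, more than at any other hour of those seasons. The share of all genes highest at those hours was not computed, so these counts mark nothing particular to the 77.

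**Figure D4:**
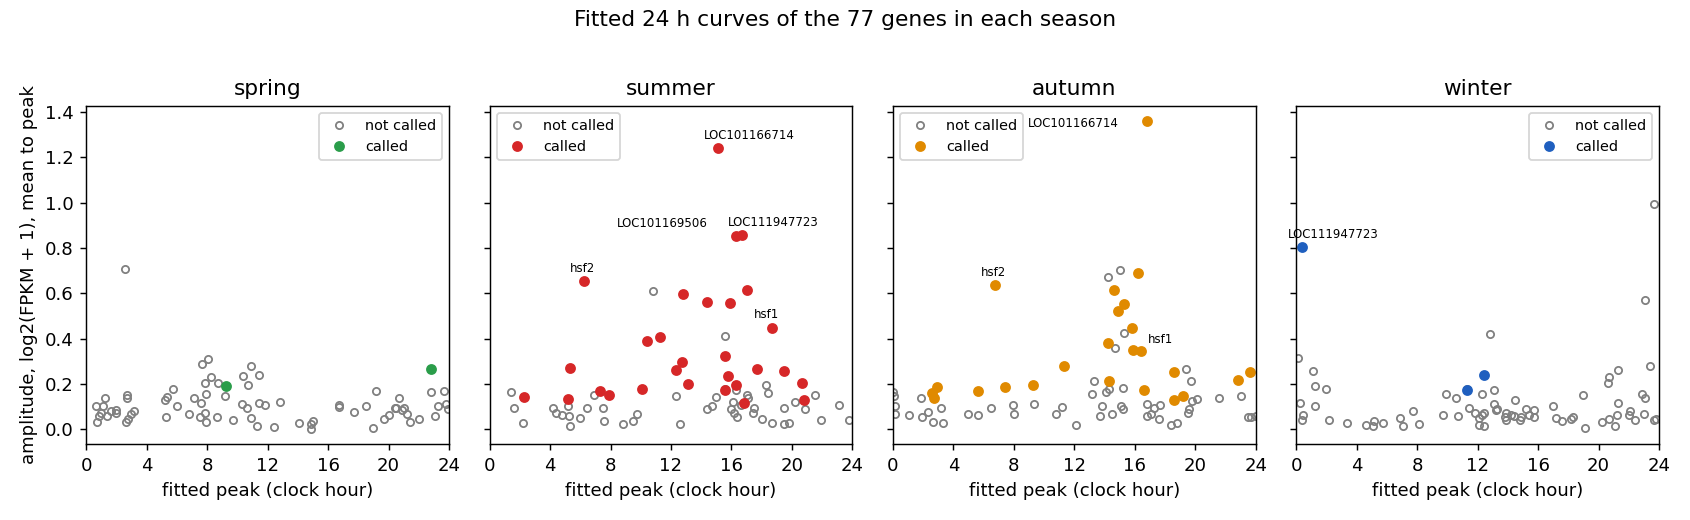
Amplitude of the fitted 24 h curve (vertical axis, log2 scale, mean to peak) against its fitted peak hour for the 77 genes in each season, with called genes filled. Called genes number 2 in spring, 29 in summer, 24 in autumn and 3 in winter, and LOC101166714 stands highest in summer (1.24) and autumn (1.36).

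Of the curves called in summer and autumn, 18 were called in both, which is 62.1% of the summer calls and 75% of the autumn calls. Their fitted peaks lay a median of 1.74 h and at most 4.68 h apart between the seasons. The same overlap and peak distance were not computed over all genes, so neither is read as particular to the 77. Peaks from 12 to 18 h made up 55.2% of the summer calls and 45.8% of the autumn calls among the 77, against 34.8% and 31.7% of all called genes. By family, summer curves were called for 3 of 3 HSP90 genes and 7 of 13 HSP70 and HSP110 genes, against 13.6% of all genes tested. Class A had 3 of 6, class B 5 of 13 and class C 8 of 31. In autumn those counts, in the same order, were 0, 8, 2, 6 and 4, against 16.1% of all genes. The class C count of autumn, 4 of 31, did not exceed that share. For HSP90 in autumn, limma with the hours as levels called LOC101169506 (adjusted p = 2.1e-12) and hsp90b1 (adjusted p = 2.8e-06). It did not call hsp90ab1 (adjusted p = 0.096). The median amplitude over the 77 was 0.14 in summer and 0.14 in autumn, against 0.10 and 0.11 over all genes tested. At the summer hours 14 and 18 the summed red blood cell markers ran from 1440 to 2420 FPKM, against 939 to 2160 at the other summer hours, and their part in the afternoon rise was not tested. At 14 h of autumn those sums were 1190, inside the 924 to 1780 of the other hours. Neuronal sums at the summer hours 14 and 18 (1660 to 1800) and at 14 h of autumn (1670 to 1750) were not above those at other hours. Ventral telencephalon sums were 277 to 290 at 14 h of autumn against 247 to 277 at the other hours, and 300 to 310 at 14 and 18 h of summer against 280 to 310. Liver-list sums were 4720 to 4790 at 14 h of autumn against 3670 to 5000, and photoreceptor sums 5.02 to 27.8 at 14 and 18 h of summer against 4.63 to 9.25. The part of these in the afternoon values was not tested.

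The difference in daily curve between seasons was tested directly. Curves differed over the seasons for 35 of the 77 genes, against 21.5% of all genes. Summer and winter curves differed for 20, against 9.75%, and spring and autumn curves for 20, against 13.1%. The smallest adjusted p over all seasons was that of hsf2 (5.7e-09), then LOC101166714 (2.1e-07), hspa4l (1.3e-06), dnajb1 (9.7e-06) and LOC101166977 (3.9e-05). For summer against winter, LOC101167227 was also among the 5 smallest (adjusted p = 0.00053), and for spring against autumn LOC101163253 (adjusted p = 0.00038). Between summer and autumn 0 of the 77 were called by limma, against 0.59% of all genes, and 9 had an unadjusted p below 0.05. That test compares fitted 24 h cosines. Levels at single hours were not compared between these seasons, so the test cannot show that the daily profiles were alike. For LOC101169506, group means were 84.5 and 109.5 FPKM at 14 and 18 h of summer, against 183.3 and 31.0 in autumn. In the test of summer against autumn curves, dnajc2 was closest to the limit (adjusted p = 0.098). It was called with groups of season and hour weighted unequally (adjusted p = 0.047). Leaving out a library also gave a call in 1 or more fits (lowest adjusted p = 0.048).

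Between summer and winter, 28 of the 77 genes were higher in summer, against 42% of all genes tested, and 39 lower, against 32.9%. The median difference was -0.11, against 0.05 over all genes. Libraries of the 2 seasons did not overlap for 27 of the 77, against 23.7% of all genes. Called higher by the largest folds were dnajc8, dnajc7, dnajc17, dnajc30, hsf1, dnajc28, hsbp1, hikeshi, dnajb5 and hspb11, from 3.11-fold to 1.36-fold. Called lower by the largest folds were LOC101166714, LOC111947723, LOC101169944, LOC100125490, LOC101164973, LOC101168635, dnajb2, dnajc2, the endoplasmic HSP70 hspa13 and dnajc5g, from 2.64-fold to 1.49-fold. The HSP70-1 genes and DNAJA4 thus stood on the winter side and hsf1 on the summer side. Of the genes listed, LOC101169944, dnajc28 and dnajc30 had a season mean below 1 FPKM, so their differences are partly built into the choice.

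Between spring and autumn, 17 genes were higher in spring, against 27.3% of all genes, and 43 lower, against 45.1%. The median difference was -0.24, against -0.08 over all genes, and libraries did not overlap for 17 genes, against 18.4%. The largest decreases in spring were dnajc8, dnajc17, hspe1, dnajc28, dnajb5, hsp90b1 (1.69-fold, 40.4 ± 3.97 against 69.8 ± 14.0 FPKM), LOC101169506, dnajc7, LOC101166977 and hsp90ab1. The difference of dnajc28, below 1 FPKM in spring, is partly built into the choice. The largest increases were LOC101168635, dnajb2, hspa4l, the mitochondrial import partner dnajc19, the cilium-linked dnajb13, LOC101164973, hspb8, LOC101170904, dnajb12 and hspa12b, from 1.96-fold to 1.2-fold. Spring against summer gave 23 higher, against 29.9%, and 41 lower, against 43.9%.

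**Figure D5:**
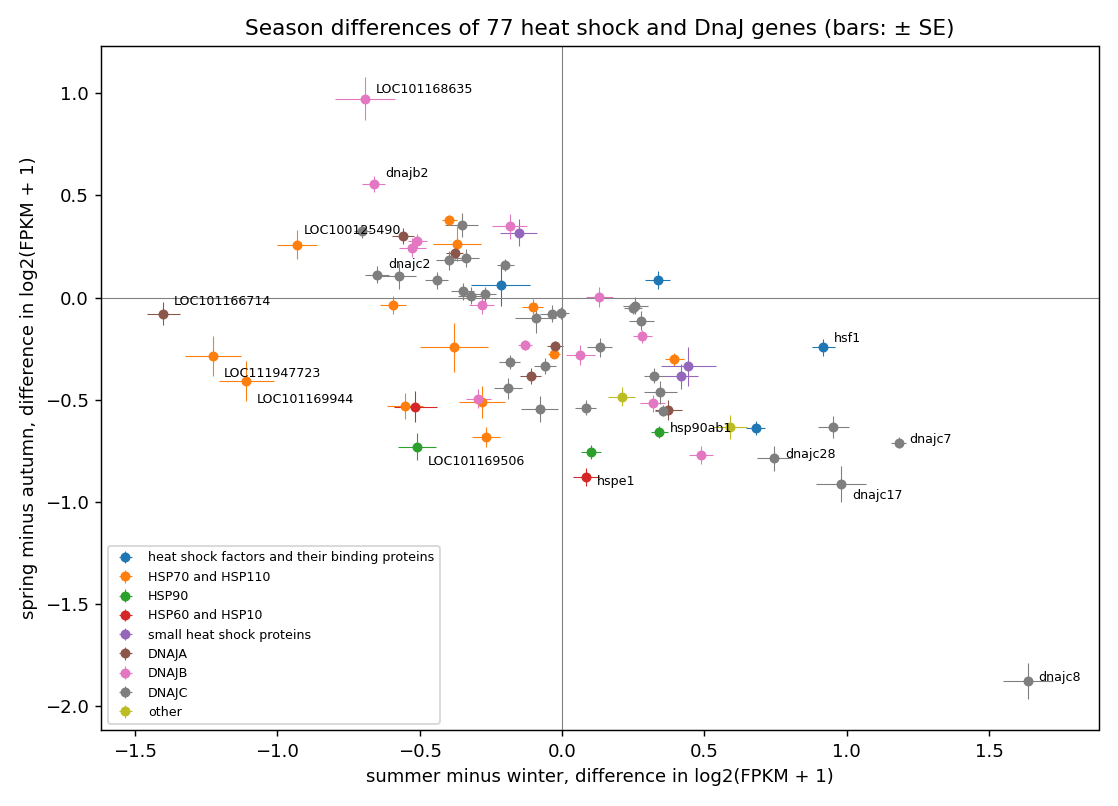
Difference in log2(FPKM + 1) between summer and winter (horizontal) and between spring and autumn (vertical) for the 77 genes, coloured by family, with bars of 1 SE in each direction. The gene dnajc8 lies at the lower right (1.64, -1.88), dnajc7 and hsf1 on the same side, and the inducible LOC101166714 and LOC111947723 at the far left.

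Of the 77 genes, 42 were higher in winter than in spring, against 28.1% of all genes, and 6 lower, against 21.3%. The median difference, winter minus spring, was 0.15 against 0.02. Summed hypothalamic markers were 434 to 555 FPKM in winter and 261 to 446 in spring, and their part in this was not tested. Libraries did not overlap for 8 of them, all higher in winter, against 2.06% of all genes. The 3 largest increases were LOC111947723, LOC101169944 (2.89-fold) and LOC101166714. LOC101169944 and LOC101169455 passed the limit of 1 FPKM through winter. Their place in these counts and the increase of LOC101169944 are thus partly built into the choice. The 3 largest decreases were dnajc30 (1.27-fold), hsf2 (1.25-fold) and dnajc6 (1.13-fold), a clathrin-uncoating partner. Autumn against winter gave 34 higher, against 42.4%, and 29 lower, against 29.3%. That balance turned with median-ratio scaling (27 higher and 33 lower) and was near even with quantile normalization (32 and 33). The shares of all genes under these scalings were not computed, so the turn is not read as particular to the 77. Between autumn and winter the largest folds were dnajc8 (3.14-fold higher in autumn) and LOC111947723 (2.53-fold lower). Summer against autumn gave 8 higher, against 19.4%, and 31 lower, against 24.2%, with hsf1 the largest increase (1.60-fold, adjusted p = 5.2e-13) and LOC101168635 the next (1.56-fold). These season pairs share libraries, so their counts are not independent of each other.

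Co-chaperones outside the name rule, 29 genes of which 26 were tested, moved both ways. Summer exceeded winter for 10, against 42% of all genes, and fell below it for 10, against 32.9%. The HSP70 nucleotide exchange factor bag1 (22.5 against 14.1 FPKM, 1.54-fold), the HSP90 partner chordc1 (1.54-fold) and the kinase loader cdc37 (1.51-fold) were highest in summer by fold. The exchange factor hspbp1 (1.48-fold), the HSP70 to HSP90 linker stip1 (1.33-fold) and bag4 (1.27-fold) were lowest. Spring exceeded autumn for 4 (27.3% of all genes) and fell below it for 16 (45.1%), with ppid (1.88-fold), an fkbp5 gene, LOC101157675 (1.58-fold) and bag1 (1.48-fold) the lowest. An fkbp8-like gene, LOC105354225 (1.28-fold), cdc37l1 (1.21-fold) and fkbp4 (1.2-fold) were the highest in spring. The CCT chaperonin, which folds actin and tubulin, had 1 subunit above and 5 below winter in summer (42% and 32.9% of all genes). It had 0 above and 7 below autumn in spring (27.3% and 45.1%), and 8 of 8 above spring in winter (28.1%). The subunit cct2 was furthest from level (1.85-fold lower in summer, adjusted p = 6.8e-09), and in spring cct5 (1.38-fold), cct8 (1.37-fold) and cct7 (1.25-fold) were lowest. Curves were called for 5 of the 26 co-chaperones in summer, against 13.6% of all genes, 6 in autumn, against 16.1%, 1 in spring, against 2.59%, and 0 in winter, against 1.53%. The spring gene was LOC101157675 (peak 10.4 h, amplitude 1.34 ± 0.33, adjusted p = 0.04), with libraries from 11.1 to 149 FPKM. For the 8 CCT subunits, 0 curves were called by limma in any of the 4 seasons, and 4 had an unadjusted p below 0.05.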

How the data were processed

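RNA was sequenced from 48 libraries of medaka brain tissue, per the labels. The authors deposited FPKM per gene, and per the submitters' processing notes used Bowtie2 2.2.5 and RSEM 1.2.12; the genome build is not given in the sources used here. FPKM are estimates scaled to length and library, so the depth is unknown, no counting interval is given, and near-identical copies may share reads. Genes with a mean of at least 1 FPKM were tested on log2(FPKM + 1) with limma 3.58.1 (trended variance) in R 4.3.3, with Benjamini-Hochberg adjustment over all genes tested, 2-sided, called below 0.05. Seasons were compared as means over 6 hours in a model of 24 groups (24 residual degrees of freedom). Daily curves were cosines of 24 h fitted per season (36 residual degrees of freedom), and each season covers 1 cycle. The fits were tested on simulated data with known changes. The 77 genes, their families, the pathway lists and the markers were chosen with earlier results of these data known. Named genes were 4 genes in full, the 10 highest and 10 lowest called in summer against winter and in spring against autumn, the 3 highest and lowest in other pairs, and the 5 smallest p per curve test; others were named for their family. All 77 had a name in the reference table. Alternatives were a pseudocount of 0.1, no filter, median-ratio scaling, quantile normalization, array weights and hours as levels. Fits of the compared seasons alone and fits leaving out each library were also made. The array weights came out equal for both libraries of each group, so they weight groups and not single libraries.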

Additional observations from a re-analysis of the deposited data

Results flagged for a closer look

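The differences in daily curve between seasons were tested directly, and those with the 5 smallest adjusted p-values (limma) are listed. Over all 4 seasons they were hsf2 (5.7e-09), LOC101166714 (2.1e-07), hspa4l (1.3e-06), dnajb1 (9.7e-06) and LOC101166977 (3.9e-05). Between summer and winter they were hsf2 (9.1e-07), LOC101166714 (1.1e-05), hspa4l (2e-04), LOC101166977 (0.00029) and LOC101167227 (0.00053). Between spring and autumn they were hsf2 (1.9e-06), LOC101166714 (1.7e-05), hspa4l (4.4e-05), dnajb1 (0.00015) and LOC101163253 (0.00038). In each case the wider curve was that of summer or autumn, as for hsf2, with an amplitude of 0.65 in summer and 0.64 in autumn against 0.05 in spring and 0.18 in winter.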

How the results depend on the processing

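No paired analysis was possible because replicate numbers were given in accession order and pair no libraries. Of the alternative values of named genes, 966 kept their call, 10 gained a call, 12 lost it and 2 reversed. Direction was checked for log2 differences only, and for amplitudes and tests of curve differences only the call was compared. Fits leaving out a library entered these totals by their lowest and highest p alone. The reversals came without hours 14 and 18, an alternative chosen after seeing the data, for spring minus autumn in hsf1 (0.0051) and LOC111947723 (0.129); the cause was not tested. Curves called in spring, 2 as reported, numbered 1 with array weights, 9 with hours as levels, 0 without the 3 spring libraries (also chosen after seeing the data) and 1 to 4 with a library left out. Curves called in winter, 3 as reported, numbered 9 with array weights, 9 with hours as levels, 5 without the 3 spring libraries and 0 to 5 with a library left out, with 0 when the winter 10 h replicate 1 library was absent. Curves differing between summer and autumn, 0 as reported, numbered 1 with array weights and 0 to 2 with a library left out. The median difference of the 77 genes between summer and winter, -0.109 as reported, was -0.162 with median-ratio scaling, -0.144 with quantile normalization, -0.149 without hours 14 and 18, and -0.13 to -0.101 with a library left out. Between spring and autumn it was -0.244 as reported, -0.15 with median-ratio scaling, -0.158 with quantile normalization and -0.141 without hours 14 and 18. Over all genes tested, the summer minus winter median moved from 0.0472 to 0.000234 with median-ratio scaling and 0.01 with quantile normalization. The spring minus autumn median of all genes moved from -0.0833 to -0.00063 and -0.0135. The other counts stayed within 1.5 times, as for summer curves, 20 to 31 with a library left out. Season was confounded with any batch, and unknown depth limits the low genes most.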
